A study of Mus musculus with 5 samples.

Results

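Transcripts of 10 receptor genes for cytokines and for the B cell survival factors BAFF and APRIL were followed in germinal centre light zone B cells of mouse spleen. The 10 genes were taken by name out of the 23234 genes of the table: the IL-4 receptor alpha chain Il4ra, the IL-21 receptor Il21r, the common gamma chain Il2rg, the IL-10 receptor alpha chain Il10ra, the shared signal transducer gp130 (Il6st), the chains Ifngr1 and Ifngr2 of the interferon gamma receptor, the receptor TACI (Tnfrsf13b), the BAFF receptor (Tnfrsf13c) and the death receptor Fas. The rule uses gene names and no expression value, but the list was drawn up with earlier results of these data known. Gene expression was measured by RNA sequencing, with 3 libraries under the label Csk(+/+) and 2 under the label Csk(f/f), called floxed-labelled below. All donor B cells carried 1 ERT2cre allele, a Cre that is active only in the presence of tamoxifen, and 1 B1-8hi allele, a knock-in heavy chain that binds the hapten NP, on a C57BL/6 background with the CD45.1/2 marker. Naive donor cells, either Csk(+/+) or floxed on both Csk alleles, were transferred into C57BL/6J hosts. The hosts were immunized intraperitoneally with NP-CGG in alum on day 0 and given tamoxifen on days 8 and 9, Csk(+/+) cells included, and NP-binding donor light zone cells were sorted on day 11. The labels describe no conditioning of the hosts, and a response of the hosts' own lymphocytes was not measured here. The libraries are given as biological replicates, but the age of the mice and the number of mice behind each library are not given in the sources used here, so p-values measure the spread between these libraries. The comparison asks whether light zone B cells with the Csk deletion differ in these receptors, Csk being the kinase that restrains Src family kinases below the B cell receptor.

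Type I cytokine receptors such as the IL-4 and IL-21 receptors pair a ligand-specific chain with the common gamma chain and signal through Janus kinases (JAKs) and STAT transcription factors, with STAT6 prominent below IL-4 and STAT3 below IL-21, IL-10 and gp130. In the germinal centre IL-4 and IL-21 come mainly from follicular helper T cells and sustain BCL6 expression, proliferation and differentiation of the B cells. The BAFF receptor and TACI belong to the tumour necrosis factor receptor family, and BAFF receptor signalling runs through TRAF3, NIK and the non-canonical NF-kB pathway. Fas is raised on germinal centre B cells, marks them in flow cytometry and makes them sensitive to Fas ligand.

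All 10 genes were detected in all 5 libraries, and their mean levels spanned 132-fold on the FPKM scale, which divides fragment counts by transcript length and library depth, so that levels of different genes can be set side by side. By the mean over the 5 libraries the order was Tnfrsf13c (176 FPKM), Il21r (153), Il2rg (123), Il4ra (87.3), Fas (59.8), Ifngr1 (26.3), Tnfrsf13b (26.1), Ifngr2 (22.2), Il10ra (9.02) and Il6st (1.33). Not all steps of this order were stable. Tnfrsf13c exceeded Il21r in 3 of 5 libraries, and Ifngr1 exceeded Tnfrsf13b in 1 of 5, so these neighbours could not be ranked. Il21r was above Il2rg, Il4ra above Fas and Tnfrsf13b above Ifngr2 in 4 of 5 libraries each. The steps from Il2rg to Il4ra, from Fas to Ifngr1, from Ifngr2 to Il10ra and from Il10ra to Il6st held in 5 of 5. The receptors of the T cell cytokines IL-4 and IL-21 and the BAFF receptor thus stood at the top, and gp130 at the bottom.

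**Figure D1:**
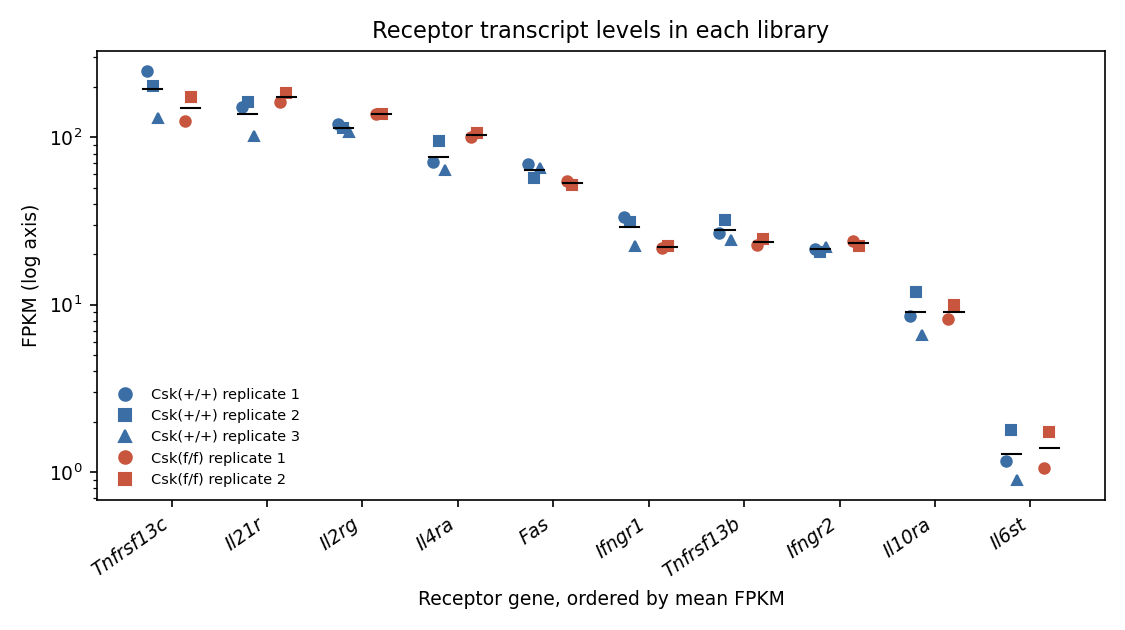
FPKM of each receptor gene (log axis) in each library, with Csk(+/+) libraries in blue and floxed-labelled libraries in red. The horizontal bars are group means. Genes run from Tnfrsf13c (mean 176 FPKM over 5 libraries) to Il6st (1.33 FPKM) while neighbouring genes such as Tnfrsf13c and Il21r share part of their range.

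Steps between the lowest FPKM values put the depth of the 5 libraries at about 9500000 to 24100000 fragments. At that depth the least abundant member, Il6st, rests on an estimated 93 to 312 fragments per library, and Il4ra on 3983 to 12754. Csk itself measured 378, 436 and 415 FPKM in Csk(+/+) and 453 and 476 FPKM in the floxed-labelled libraries. A whole-gene value also counts exons that a deletion spares, so it does not check the genotype, and the groups keep the names of their labels. All 14 germinal centre B cell marker genes, with Cd79a and Bcl6 among them, reached 1 FPKM. The T cell genes Cd3e and Cd3g were at 0 in all 5 libraries, 3 of 12 T cell markers reached 1 FPKM in any library (Cd8b1, Lat and Thy1, with summed levels of the list of 8.64 to 10.5 FPKM and 12.2 to 15.7 FPKM for Csk(+/+) and floxed-labelled libraries), and so did 3 of 13 macrophage markers (12.8 to 23.3 and 25.9 to 27.0). The erythroid list reached 368 to 1868 FPKM in Csk(+/+) and 393 to 1053 in the floxed-labelled libraries. Summed light zone markers (14 genes, Cd40 among them) were 1153 to 1269 and 1384 to 1389 FPKM, and summed dark zone markers (11 genes) 559 to 613 and 433 to 479. Naive B cell markers summed to 381 to 431 and 460 to 514 FPKM. Most of that sum was the single gene Fcer2a, at 347 to 391 and 423 to 477 FPKM. Fcer2a is also in the list of STAT6 targets described below. The summed T cell, macrophage, light zone and dark zone levels thus did not overlap between the groups. The naive B cell sum, mostly Fcer2a, did not overlap either. The part of these levels in the receptor differences was not tested. Sums overlapped for the germinal centre B cell, erythroid, natural killer and neutrophil lists. They also overlapped for plasma cell (241 to 294 and 235 to 254 FPKM), dendritic cell (17.0 to 22.3 and 18.3 to 24.0) and stromal markers (16.5 to 24.4 and 21.3 to 23.3). No background share was computed for such sums. In sorted bulk RNA, fewer cells of a kind and less RNA per cell cannot be told apart.

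None of the 10 receptors passed the threshold, an adjusted p under 0.05 by limma over the 10242 genes tested (0 of 10, where 8 genes or 0.0781% of all genes passed). Every one of the 10 had entered the test, which asked for 1 FPKM in at least 2 libraries. At an unadjusted p under 0.05 there was 1 of 10, Il4ra, where 21.7% of all genes lay under that level. The log2 differences on the log2(FPKM + 1) scale, floxed-labelled minus Csk(+/+), ran from -0.35 for Ifngr1 to 0.45 for Il4ra, with a median of 0.05 and 6 of 10 positive. That median had no stable sign, running from -0.11 to 0.16 with 1 library left out at a time. All genes tested had a median of -0.01 and 48.7% positive. The 2 groups of libraries did not overlap for 4 of the 10 receptors: Il4ra, Il2rg and Ifngr2 were higher in both floxed-labelled libraries and Fas lower. Of all genes, 45.1% did not overlap (20.7% higher and 24.5% lower), so 4 of 10 is close to the background share. The 95% limits of the fold were 0.508 and 1.23 for Tnfrsf13c, whose interval was the widest of the 10 on the log2 scale, and 1.02 and 1.83 for Il4ra.

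**Figure D2:**
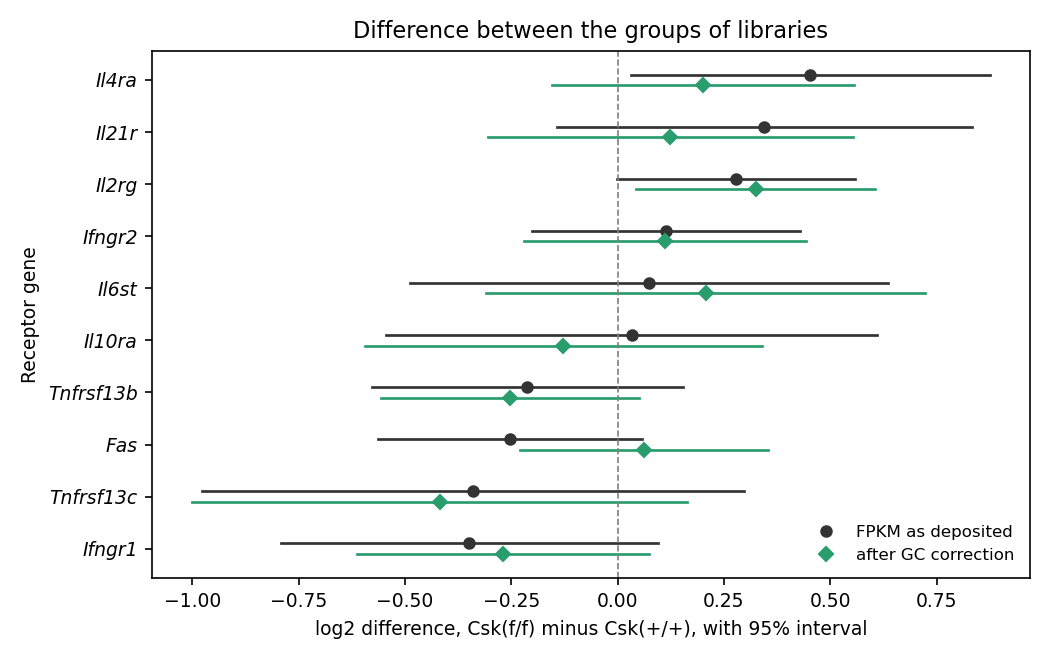
Log2 difference between floxed-labelled and Csk(+/+) libraries for each receptor, with 95% intervals from limma, for FPKM as deposited (black) and after a correction for transcript GC content (green). Il4ra lies highest as deposited (0.45) and Ifngr1 lowest (-0.35). Fas and Il10ra change sign with the correction. The corrected interval of Il2rg (0.04 to 0.61) lies above 0. After the correction 1 of the 10 receptors and 9.96% of all genes had an unadjusted limma p under 0.05.

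The receptors were also compared with the base composition of their transcripts taken into account, since low-GC and high-GC transcripts differed between these libraries. Of all genes, 21.7% had an unadjusted limma p under 0.05 before the correction and 9.96% after it. The correction removes a technical trend and a group difference that follows GC content alike, and they cannot be told apart here. After each library's trend on GC content was subtracted, the groups did not overlap for 3 receptors, Il2rg (higher), Ifngr1 and Tnfrsf13b (both lower), against 28.5% of all genes (14.6% higher and 13.9% lower), and 0 of 10 passed (0.0791% of all genes). Other settings called more genes but no receptor: 4.8% of all genes passed with the replicate number as a block, 6.55% with array weights, 1.71% with the GC correction and the block together, and 0.399% with the correction once Csk(+/+) replicate 3 was left out. Il2rg was the receptor whose groups stayed apart both before and after the correction. Csk(+/+) replicate 3 held the lowest Csk(+/+) value for 8 of the 10 receptors, the exceptions being Fas and Ifngr2, and for 53.4% of all genes tested. Leaving it out gave the 10 receptors a median log2 difference of -0.10, and groups that did not overlap for 3 receptors on the higher and 4 on the lower side, where the shares of all genes were 28% and 38.4% (66.4% together). Without floxed-labelled replicate 2 the median was -0.11 and the counts were again 3 and 4 (26%, 31.3% and 57.3% of all genes). In both cases Ifngr1, Tnfrsf13b and Tnfrsf13c joined Fas on the lower side. With any of the other libraries left out, Fas alone was on the lower side. The receptors on the higher side were then 3 without Csk(+/+) replicate 1, 4 without Csk(+/+) replicate 2 and 4 without floxed-labelled replicate 1. Il21r joined the higher side where there were 4. The shares of all genes were not computed for these leave-outs.

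The promoter windows of the 4 receptors whose groups did not overlap are shown so that their letters can be searched for sites of the STAT and NF-kB factors that act below these receptors. They hold the 250 bases before the transcription start, from RefSeq on GRCm38.p6, a later build than the mm9 genome of the expression values. Of the 10 genes, 9 matched an entry in that table, all but Il10ra. Capitals mark matches, on either strand, to a GAS element (TTCNNNGAA), the STAT6-type element (the same TTC and GAA ends with 4 bases between them), an ISRE core (the letters GAAA repeated after any 2 bases), a kappaB site or the octamer (ATGCAAAT). The octamer was added after the sequences were read, and the ISRE core, with no match here, occurs in 2.98% of all windows. The windows lie at chr7:125552021-125552270 (+ strand), chrX:101268256-101268505 (- strand), chr16:91546809-91547058 (+ strand) and chr19:34290409-34290658 (+ strand).
Il4ra: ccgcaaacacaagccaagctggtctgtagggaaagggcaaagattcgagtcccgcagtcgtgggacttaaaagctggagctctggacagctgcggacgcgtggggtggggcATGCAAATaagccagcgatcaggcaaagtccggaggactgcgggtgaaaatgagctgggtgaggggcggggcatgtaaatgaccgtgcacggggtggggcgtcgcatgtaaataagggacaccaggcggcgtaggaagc
Il2rg: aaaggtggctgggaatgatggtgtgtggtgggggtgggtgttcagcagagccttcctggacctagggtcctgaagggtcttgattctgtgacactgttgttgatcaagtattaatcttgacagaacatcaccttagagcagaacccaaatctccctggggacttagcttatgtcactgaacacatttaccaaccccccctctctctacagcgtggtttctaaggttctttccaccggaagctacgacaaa
Ifngr2: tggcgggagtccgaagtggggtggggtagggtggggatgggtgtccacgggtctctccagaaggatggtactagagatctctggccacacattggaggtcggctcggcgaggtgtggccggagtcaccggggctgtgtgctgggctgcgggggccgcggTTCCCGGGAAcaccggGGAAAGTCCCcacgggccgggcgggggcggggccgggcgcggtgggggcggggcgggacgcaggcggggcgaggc
Fas: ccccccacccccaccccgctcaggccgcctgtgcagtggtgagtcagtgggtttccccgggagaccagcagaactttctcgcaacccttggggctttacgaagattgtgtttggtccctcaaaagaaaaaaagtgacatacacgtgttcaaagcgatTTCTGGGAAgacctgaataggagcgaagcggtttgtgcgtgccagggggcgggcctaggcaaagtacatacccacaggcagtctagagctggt

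In the Il4ra window the octamer lay at -139 to -132 from the start, a match found in 1.60% of 32851 promoter windows of that length. The Ifngr2 window held a STAT6-type match at -91 to -82 (5.85% of windows) and a kappaB match on the other strand at -75 to -66 (3.90% of windows). The Fas window held a GAS match at -93 to -85 (7.02% of windows). No letters of the Il2rg window matched, nor did those of the other 5 windows searched (Il21r, Il6st, Ifngr1, Tnfrsf13b and Tnfrsf13c). The windows also differed in composition, with 74.0% GC and 25 CpG sites for Ifngr2 against 49.2% GC and 3 CpG sites for Il2rg. These matches describe letters and not binding.

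Among the receptors of the T cell cytokines, Il4ra, the chain that binds IL-4 and carries the docking sites for STAT6, had 70.9, 95.1 and 63.4 FPKM in Csk(+/+) and 101 and 107 FPKM in the floxed-labelled libraries. Both floxed-labelled values were above all 3 Csk(+/+) values, with Csk(+/+) replicate 2 close below them. The means were 76.5 ± 16.6 (SD, n = 3) and 104 ± 4.21 (SD, n = 2), a log2 difference of 0.45 ± 0.18 (SE) with a limma adjusted p of 0.215. After the GC correction the log2 difference was 0.20 and the groups overlapped, and without Csk(+/+) replicate 3 it was 0.33.

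Il21r encodes the chain that binds IL-21. It had 151, 163 and 102 FPKM in Csk(+/+) and 163 and 184 FPKM in the floxed-labelled libraries. The groups overlapped, since Csk(+/+) replicate 2 and floxed-labelled replicate 1 were nearly equal, and Csk(+/+) replicate 3 stood below the rest. The log2 difference was 0.35 ± 0.21 (SE, limma adjusted p = 0.347). It was 0.14 without Csk(+/+) replicate 3 and 0.12 after the GC correction, and with both it was -0.03.

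Il2rg, the signalling chain shared by the receptors for IL-2, IL-4, IL-7, IL-9, IL-15 and IL-21, had 120, 113 and 107 FPKM in Csk(+/+) and 137 and 138 FPKM in the floxed-labelled libraries. Replicates were close within each group, 113 ± 6.63 (SD, n = 3) and 138 ± 0.348 (SD, n = 2), and the groups did not overlap. The fold was 1.21 with 95% limits of 0.999 and 1.47 (limma adjusted p = 0.232). After the GC correction the log2 difference was 0.32 ± 0.12 (SE, adjusted p = 0.456), and over the 17 alternative settings it stayed between 0.22 and 0.35.

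The IL-10 receptor alpha chain, Il10ra, had 8.59, 11.9 and 6.57 FPKM in Csk(+/+) and 8.19 and 9.89 FPKM in the floxed-labelled libraries. Both floxed-labelled values lay inside the Csk(+/+) range, with means of 9.01 ± 2.66 (SD, n = 3) and 9.04 ± 1.20 (SD, n = 2). The log2 difference was 0.03 with 95% limits of -0.54 and 0.61, and it was below 0 after the GC correction (-0.13) and, separately, when Csk(+/+) replicate 3 was left out (-0.15).

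Il6st, which encodes gp130, the signal chain of the IL-6 family receptors, had 1.16, 1.79 and 0.901 FPKM in Csk(+/+) and 1.06 and 1.73 FPKM in the floxed-labelled libraries. These values also overlapped in full. The log2 difference was 0.07 with 95% limits of -0.49 and 0.64 (limma adjusted p = 0.871), and without Csk(+/+) replicate 3 it was -0.05.

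The interferon gamma receptor chains differed in sign. Ifngr1, the ligand-binding chain, had 33.4, 31.2 and 22.4 FPKM in Csk(+/+) and 21.9 and 22.6 FPKM in the floxed-labelled libraries. Csk(+/+) replicates 1 and 2 stood above the other 3 libraries, and Csk(+/+) replicate 3 lay among the floxed-labelled values. The log2 difference was -0.35 ± 0.19 (SE, limma adjusted p = 0.308), and without Csk(+/+) replicate 3 it was -0.52 ± 0.13 (SE, limma adjusted p = 0.0538, where 4.05% of all genes passed). With the GC correction as well it was -0.38 (adjusted p = 0.133).

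Ifngr2, the chain that brings JAK2 into the receptor, had 21.4, 20.7 and 22.2 FPKM in Csk(+/+) and 24.1 and 22.5 FPKM in the floxed-labelled libraries. It varied least of the 10, with 1.16-fold between its highest and lowest library. The groups did not overlap, but the gap between Csk(+/+) replicate 3 and floxed-labelled replicate 2 was small, and the log2 difference was 0.11 ± 0.14 (SE, limma adjusted p = 0.628), or 0.0678 without floxed-labelled replicate 1.

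Of the receptors for BAFF and APRIL, Tnfrsf13c, the BAFF receptor needed for survival of mature B cells, varied over a wide range. It had 249, 201 and 130 FPKM in Csk(+/+) and 125 and 173 FPKM in the floxed-labelled libraries. The groups overlapped because Csk(+/+) replicate 3 lay between the 2 floxed-labelled values. The means were 193 ± 59.7 (SD, n = 3) and 149 ± 34.1 (SD, n = 2), a log2 difference of -0.34 ± 0.27 (SE, limma adjusted p = 0.471). Without Csk(+/+) replicate 3 it was -0.60 ± 0.17 (SE, limma adjusted p = 0.0661), while it was -0.13 without Csk(+/+) replicate 1, -0.11 without floxed-labelled replicate 1 and -0.57 without floxed-labelled replicate 2.

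Tnfrsf13b encodes TACI, which binds both BAFF and APRIL. It had 26.9, 31.9 and 24.5 FPKM in Csk(+/+) and 22.8 and 24.6 FPKM in the floxed-labelled libraries. Csk(+/+) replicate 3 and floxed-labelled replicate 2 were nearly equal, so the groups overlapped by that pair. The log2 difference was -0.21 ± 0.16 (SE, limma adjusted p = 0.434), and after the GC correction -0.25 with no overlap. Without Csk(+/+) replicate 2 it was -0.11. The remaining receptor of this family, BCMA (Tnfrsf17), which serves plasma cells, was not tested because it stayed under 1 FPKM, at 0.286, 0.0772 and 0 FPKM in Csk(+/+) and at 0 in both floxed-labelled libraries.

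Fas had 69.1, 57.5 and 65.7 FPKM in Csk(+/+) and 55.1 and 51.9 FPKM in the floxed-labelled libraries. All 3 Csk(+/+) values were above both others, with Csk(+/+) replicate 2 nearest to them. The means were 64.1 ± 5.96 (SD, n = 3) and 53.5 ± 2.26 (SD, n = 2), a log2 difference of -0.25 ± 0.13 (SE, limma adjusted p = 0.297). Its transcript has the lowest GC content of the 10 (43.9%), and after the GC correction the sign turned (0.06, adjusted p = 0.905).

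Ratios of FPKM within a library do not depend on how libraries are scaled, and they were taken for 6 pairs of receptors, as values with no test. The ratio of Ifngr1 to Ifngr2 was 1.56, 1.50 and 1.01 in Csk(+/+) and 0.910 and 1.00 in the floxed-labelled libraries. It was the only one of the 6 whose groups did not overlap, and Csk(+/+) replicate 3 stood just above floxed-labelled replicate 2. Of single genes 45.1% did not overlap, and no such share was computed for ratios, so 1 of 6 does not set this pair apart. The ratio of Il21r to Il2rg was 1.26, 1.44 and 0.952 against 1.19 and 1.33, and that of Il4ra to Il2rg 0.590, 0.840 and 0.593 against 0.732 and 0.773. In each library Il4ra was thus below the common gamma chain. Tnfrsf13c exceeded Tnfrsf13b 5.30 to 9.23 times in Csk(+/+) and 5.50 and 7.03 times in the floxed-labelled libraries. Il10rb, the second chain of the IL-10 receptor, had 9.16, 11.3 and 10.5 FPKM in Csk(+/+) and 16.2 and 13.8 FPKM in the floxed-labelled libraries (log2 difference 0.50 ± 0.17, SE, limma adjusted p = 0.190). The ratio of Il10ra to Il10rb was 0.938, 1.05 and 0.626 against 0.507 and 0.718. Il6ra, the IL-6 binding chain that works with gp130, had 2.15 to 3.66 FPKM over the 5 libraries and was 1.52 to 3.15 times Il6st. Il13ra1, an alternative partner of the IL-4 receptor alpha chain, was listed at 0.0275 to 0.150 FPKM.

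**Figure D3:**
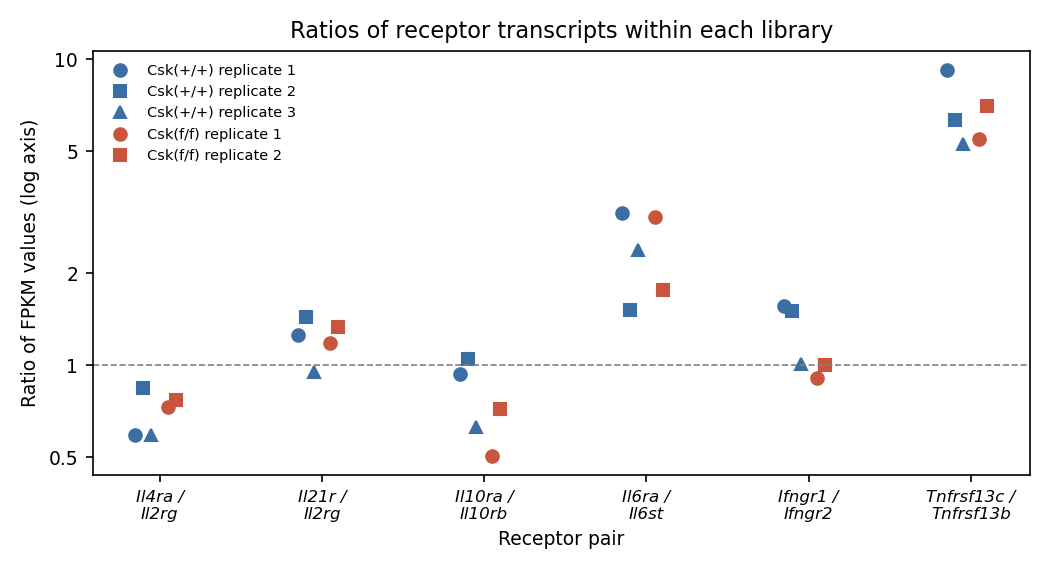
Ratio of the FPKM values of paired receptor transcripts within each library (log axis), with Csk(+/+) libraries in blue, floxed-labelled libraries in red and a dashed line at equal levels. Ifngr1 over Ifngr2 is 1.56, 1.50 and 1.01 in Csk(+/+) and 0.910 and 1.00 in the floxed-labelled libraries, and Tnfrsf13c over Tnfrsf13b is above 5 in all 5 libraries.

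The genes around these receptors were described from 10 lists of ligands, other receptors, signalling components and targets, and 0 of their 117 tested genes passed by limma over all genes. With array weights 8 of the 117 passed (6.84%, against 6.55% of all genes), namely Jak1, Jak2, Gbp3, Bcl3, Birc2, Chuk and Casp6 (adjusted p = 0.0438, 0.0467, 0.0499, 0.0478, 0.0296, 0.0422 and 0.0451), and Bak1 (0.0444), named after its value was seen. With the replicate block 4 passed (3.42%, against 4.8%), Ptpn2, Birc2, Chuk and Casp6 (adjusted p = 0.0488, 0.0455, 0.0452 and 0.0484), and Casp6 was the 1 gene that passed with the block and the GC correction together (0.0279). The list medians given below depend on single libraries. With 1 library left out at a time they ran from -0.00817 to 0.28 for the other cytokine receptor chains, from 0.18 to 0.30 for the TNF receptor family, from 0.10 to 0.38 for the JAK and STAT genes and from -0.19 to 0.23 for the negative regulators. The ranges were 0.29 to 0.34 for the STAT6 targets, -0.0526 to 0.22 for the interferon gamma targets, 0.23 to 0.40 for the STAT3 targets, -0.24 to -6.85e-05 for BAFF receptor signalling and -0.00565 to 0.18 for the Fas pathway. The lowest value was that without Csk(+/+) replicate 3, except for the TNF receptor family (without floxed-labelled replicate 2) and the STAT6 targets (without floxed-labelled replicate 1). Transcripts of the receptors' own ligands were at or near 0 in these B cells. Of 16 ligand genes 13 stayed under 1 FPKM in every library and 6 were listed at 0 in all 5, with Il4, Il6 and Ifng among these 6. Tnfsf13b, which encodes BAFF, was at 0.505 FPKM or less, and Fasl at 0.114 or less. The 3 others were Tnf and the lymphotoxin genes, with Ltb at 447 to 593 FPKM and Lta at 34.9 to 62.1.

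Of 32 other cytokine receptor chains in the table, 19 were tested, with a median log2 difference of 0.15, 13 positive, and unadjusted p-values under 0.05 for 3 on the higher and 1 on the lower side (background 8.07% and 13.6%). Ifnar2, a chain of the type I interferon receptor, had 7.60 ± 1.53 FPKM (SD, n = 3) for Csk(+/+) and 13.0 ± 1.57 (SD, n = 2) in the floxed-labelled libraries, a log2 difference of 0.72 ± 0.20 (SE, limma adjusted p = 0.161, and 0.68 after the GC correction). Il3ra, the IL-3 receptor alpha chain, had means of 12.0 and 18.4 FPKM (log2 difference 0.56, and 0.23 with overlapping groups after the correction). Of 9 tested TNF receptor family genes 6 were positive (median 0.27, and 0.10 with 5 positive after the GC correction). Cd40, the receptor for CD40 ligand of T cells, had 92.4, 87.2 and 87.1 FPKM against 106 and 109. Tnfrsf1b, a receptor for tumour necrosis factor, had means of 6.42 and 9.27 FPKM. As deposited, the groups did not overlap for these 4 genes, which were chosen for the smallest p-values of their lists.

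All 11 JAK and STAT genes were tested, with a median log2 difference of 0.27 and 6 positive. The 2 with the smallest p-values had log2 differences of opposite sign, and both kinases serve the common gamma chain receptors. Jak1, which pairs with the ligand-specific chains, had 94.0, 86.5 and 81.8 FPKM in Csk(+/+) and 63.6 and 66.7 FPKM in the floxed-labelled libraries (log2 difference -0.42, limma adjusted p = 0.166, and -0.29 after the GC correction). Jak3, which binds the common gamma chain, had 63.0, 67.3 and 63.8 FPKM against 81.3 and 90.3 (0.40, limma adjusted p = 0.169, and 0.07 after the GC correction). As deposited the groups overlapped for neither, and after the correction for Jak3. Jak2, Tyk2, Stat6 and Stat3 were chosen after their values were seen. Jak2, the kinase of the Ifngr2 chain, had means of 12.4 and 8.01 FPKM, and Tyk2, which serves the IL-10 receptor, 19.4 and 26.1. Stat6 had 45.7 and 61.5 and Stat3 65.1 and 78.2 FPKM. As deposited the groups overlapped for Stat3 only (limma adjusted p = 0.411). The limma adjusted p was 0.2005 for Jak2, 0.266 for Tyk2 and 0.180 for Stat6. After the GC correction the log2 differences were -0.26 for Jak2, 0.15 for Tyk2, 0.24 for Stat6 and 0.13 for Stat3. Only the groups of Stat6 then stayed apart. With the GC correction the median of the 11 was 0.07 and 7 were positive.

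Of 17 tested negative regulators 9 were positive (median 0.07, and 0.02 after the GC correction). On each side 3 had an unadjusted p under 0.05 (background 8.07% on the higher and 13.6% on the lower side). The phosphatase gene Ptpn2 had 30.1, 19.1 and 27.9 FPKM in Csk(+/+) and 15.2 and 12.7 FPKM in the floxed-labelled libraries, and Ptprc, which encodes CD45, had means of 111 and 74.5 FPKM. The groups of libraries did not overlap for either as deposited, and those of Ptprc overlapped after the GC correction. Their log2 differences were -0.81 and -0.59 as deposited (limma adjusted p = 0.155 and 0.175) and -0.34 and -0.11 after the GC correction.

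The target lists were read for STAT6, interferon gamma and STAT3. All 6 tested STAT6 targets had positive log2 differences (median 0.31, and 0.18 with 5 of 6 positive after the GC correction), where 48.7% of all genes were positive. Il4i1, the IL-4-induced amino acid oxidase, had 263, 322 and 266 FPKM in Csk(+/+) and 383 and 437 FPKM in the floxed-labelled libraries (log2 difference 0.53 ± 0.15, SE, limma adjusted p = 0.161, and 0.21 after the correction). Xbp1, a regulator of the secretory programme, had means of 86.9 and 109 FPKM. Of 16 interferon gamma targets 9 were positive (median 0.09), with the guanylate-binding protein gene Gbp3 at means of 7.44 and 3.70 FPKM and the peptide transporter gene Tap1 at 152 and 206. Of 10 STAT3 targets 8 were positive (median 0.34, and 0.06 with 6 positive after the correction), with Bcl3 at 48.3 and 71.5 FPKM and Hif1a at 18.6 and 11.9.

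Downstream of the BAFF receptor, 14 genes had a median log2 difference of -0.12 with 6 positive, and after the GC correction a median of 0.05 with 8 positive. Birc2, which encodes the ubiquitin ligase cIAP1 that keeps the kinase NIK low, had 19.2, 16.7 and 14.3 FPKM in Csk(+/+) and 10.0 and 9.81 FPKM in the floxed-labelled libraries (log2 difference -0.69 ± 0.17, SE, limma adjusted p = 0.154). It also passed without Csk(+/+) replicate 3 (-0.79, limma adjusted p = 0.0406), and the GC correction gave -0.34 (adjusted p = 0.49). Chuk, the IKK alpha kinase of the non-canonical pathway, had means of 11.8 and 6.11 FPKM (-0.82, and -0.41 after the correction). Of 14 tested genes of the Fas death pathway 8 were positive (median 0.12, and 0.03 with 9 positive after the correction). Casp6, a caspase that acts late in the cascade, had 22.2, 19.6 and 24.9 FPKM in Csk(+/+) against 36.5 and 29.1, with no overlap. Its log2 difference was 0.54 (limma adjusted p = 0.173), and after the correction 0.60.

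**Figure D4:**
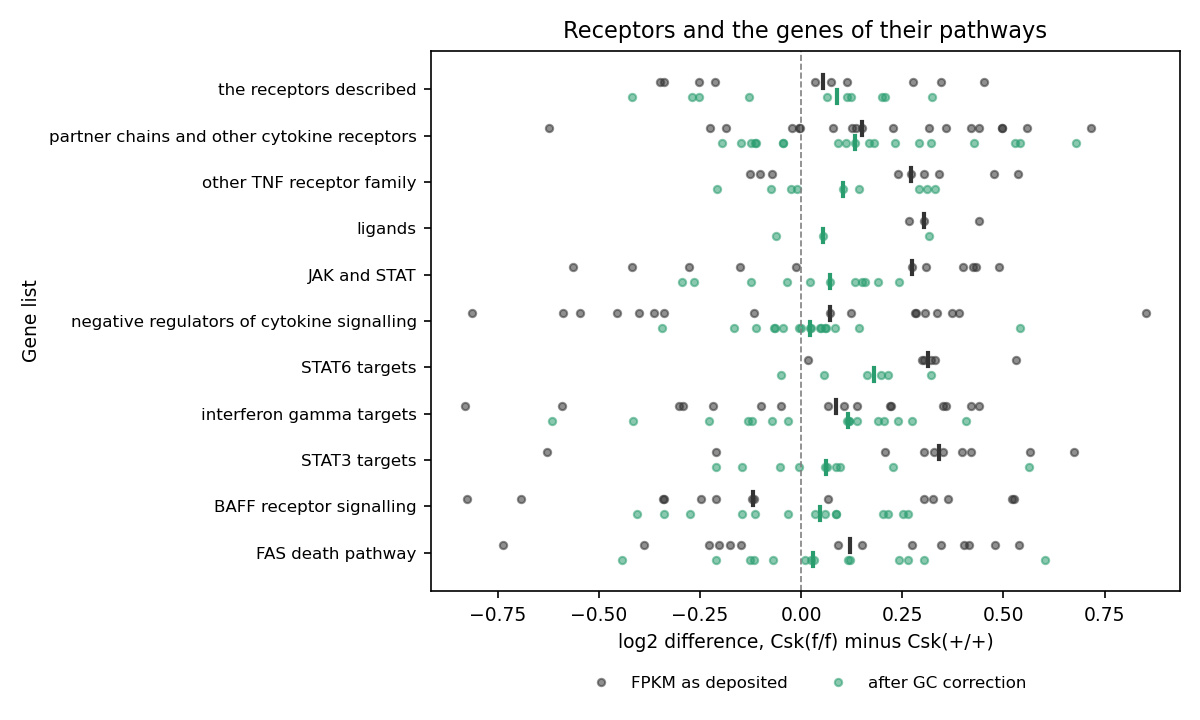
Log2 difference between floxed-labelled and Csk(+/+) libraries for each tested gene (points) of the 10 receptors and of the 10 lists around them, with list medians as vertical bars, for FPKM as deposited (black) and after the GC correction (green). The median of the 11 JAK and STAT genes lies at 0.27 as deposited and at 0.07 after the correction.

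Il4ra and Il21r are neighbours on chromosome 7 in RefSeq, and the 3 genes of the table on each side of the pair were read with them. Among these 6, 4930571K23Rik and Gsg1l were under 1 FPKM in every library and were not tested. Jmjd5 (the current Kdm8) had 7.17, 8.71 and 7.40 FPKM in Csk(+/+) and 4.82 and 4.74 FPKM in the floxed-labelled libraries (log2 difference -0.60 ± 0.18, SE, limma adjusted p = 0.169), with no overlap. Nsmce1 (158 and 142 FPKM), Gtf3c1 (25.0 and 31.2) and D430042O09Rik (3.06 and 2.86) overlapped between the groups.

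Over the 5 libraries the receptors most alike in pattern were Il10ra and Il6st, with a root mean square difference of 0.09 between their log2 deviations from the gene mean, and Il2rg and Ifngr2 (0.11). Il4ra was nearest to Il21r (0.15). Among 7398 genes with a mean of at least 5 FPKM, the patterns most like Il4ra were those of Pex6 (0.03), Rnpepl1 (0.03) and Aldh4a1 (0.03), and those most like Ifngr1 were Nupl1 (0.02), Gm10845 (0.02) and Cnot1 (0.02). All these patterns share the same 5 libraries.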

How the data were processed

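RNA sequencing libraries of sorted NP-binding donor light zone B cells (3 under the label Csk(+/+), 2 under Csk(f/f)) were read from 1 deposited table. The authors deposited FPKM per gene, made with TopHat2 2.0.8 and Cufflinks 2.1.1 on mm9 per the submitters' processing notes. The annotation and any scaling between libraries are not given in the sources used here. The table held 23234 genes, and 1 further line holding column names was dropped. The 10242 genes that reached 1 FPKM in 2 or more libraries were tested on log2(FPKM + 1), which understates changes of low genes, with limma 3.58.1 in R 4.3.3 (trended prior, Benjamini-Hochberg adjustment over all genes, adjusted p under 0.05). Standard errors and 95% intervals are limma's. The test was tried on simulated data with independent noise and changes of 2-, 4- and 8-fold. It recovered 98.2%, 100% and 100% of the changed genes, with 12 false calls. No smaller change was simulated, so the trial does not show the power at the fold sizes of these receptors.

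The GC correction subtracted a lowess trend (span 0.3) of each library's deviation from the gene mean on the GC content of the longest GENCODE M21 transcript, available for 98.8% of tested genes. Depth was read from the steps of the lowest FPKM values of genes with transcripts of at least 1500 nt. Named genes were all 10 receptors, from each of the 10 lists up to 4 genes past the threshold or else the 2 with the smallest p, the 3 closest patterns to the highest and lowest receptor, chromosome 7 neighbours, partner chains and Csk. The members and lists were chosen with earlier results of these data known. Some genes that this rule names are not reported here. There were 17 alternative settings.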

Additional observations from a re-analysis of the deposited data

How the results depend on the processing

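In 17 alternative settings (other pseudocounts, filters, scalings and limma options, the GC correction, the replicate block and each library left out) 0 of the 10 receptors passed. Il6st fell below the stricter FPKM filter and was tested in 16 of these settings. Il4ra, Il2rg, Ifngr2, Ifngr1, Tnfrsf13b and Tnfrsf13c kept their sign in all 17. Over all genes 8 passed as reported, 492 with the replicate block, 671 with array weights, 411 without Csk(+/+) replicate 3, 173 with the GC correction and block, and 40 with the GC correction without that library. The replicate numbers are not stated to pair the samples. Deviations of same-numbered libraries from their group means correlated at -0.13 and 0.11. These values cannot decide on pairing, because the deviations of the 2 Csk(f/f) libraries mirror each other. Csk(+/+) replicate 3 has no partner, so the block gives the log2 differences obtained without it.

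Signs turned as follows on the log2 scale. With the GC correction Il10ra had -0.13, Fas 0.0631, Ltb -0.0631, D430042O09Rik 0.20 and Csk -0.14. With the GC correction and replicate block the values were -0.0325 for Il21r, -0.26 for Il10ra, 0.12 for Fas, -0.0124 for Ltb, -0.0706 for Lta, -0.0168 for Gtf3c1, 0.0747 for D430042O09Rik and -0.0738 for Csk. With the correction but without Csk(+/+) replicate 3 they were -0.0330 for Il21r, -0.26 for Il10ra, 0.12 for Fas, -0.0146 for Ltb, -0.0706 for Lta, -0.0169 for Gtf3c1, 0.0766 for D430042O09Rik and -0.0752 for Csk. The replicate block alone gave -0.15 for Il10ra, -0.0497 for Il6st, 0.0289 for Nsmce1 and -0.00817 for Il6ra. Array weights gave -0.12 for Il10ra and -0.0308 for Il6st, and quantile normalization 0.0932 for D430042O09Rik. With 1 library left out at a time, Il10ra ran from -0.15 to 0.23, Il6st from -0.13 to 0.28, Nsmce1 from -0.24 to 0.0289, D430042O09Rik from -0.26 to 0.13 and Il6ra from -0.00817 to 0.27. Where the Csk(f/f) group was left with 1 library, its spread was taken to equal that of the other group. The cause was not tested. Il6st rests on 93 to 312 estimated fragments per library, and the number of libraries limits the precision of all 10.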
